A study of Mus musculus with 6 samples.

Results

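Chromosome 14 of the mouse carried 464 genes whose signal passed a brightness threshold, and their levels were followed band by band in a line with mutant p53 and a line with an empty vector. A cytoband is a stretch of a chromosome seen as a light or dark stripe after staining, and the bands of mouse chromosome 14 run from A1 next to the centromere to E5 at the far end. Genes of a band are neighbours on the DNA and need not share a function. Members were the genes whose location in the deposited comparison table named chromosome 14, with the brightest probe row used for each symbol. A gene was kept if the higher of its 2 group means was above 4.53, the median of the mean signals of all probe rows on the log2 scale. Of 24574 genes on the array, 818 were placed on chromosome 14 by their text, and 464 of these passed. Over all chromosomes 14898 genes passed. Both group means were above the threshold for 417 members, that of the empty vector line alone for 27 and that of the p53 R273H line alone for 20, and genes of the last 2 kinds had to differ to be kept.

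The cells were mouse oviductal epithelial (MOE) cells. The oviduct is the counterpart in mice of the human fallopian tube. One stable line carried the empty pCMV-Neo plasmid and gave 3 arrays, and a second carried a plasmid with p53 R273H and gave 3. R273H alters the part of p53 that binds DNA and is common in human tumours. Cells of both lines were grown from antibiotic-resistant colonies in medium with serum, epithelial growth factor, insulin, transferrin and estradiol. The RNA was taken at consecutive passages, so the spread between arrays of a group is that between passages of 1 line, and mutant p53 cannot be told apart from other differences between the lines. The arrays measured RNA only.

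Chromosome 14 was chosen by its values in this very comparison, and so was its description by bands. The differences below are therefore a description of these 6 arrays, and no test is given for them. A gene is said to have risen or fallen, or is counted as called, where its limma adjusted p over all 24574 genes was below 0.05. Of the genes above the threshold 18.3% were called lower and 18.2% higher in the p53 R273H line, and of all genes fitted 11.7% and 11.9%. Groups that did not overlap, with all 3 arrays of one line below all 3 of the other, were found for 26.8% of genes above the threshold in the lower direction and for 27.8% in the higher. Nothing is read from the members' counts against these shares, since the comparison that gave them also chose the chromosome.

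All arrays held similar overall signal, with medians between 4.51 and 4.58. The correlation of 2 arrays over the 14898 genes was 0.991 to 0.993 within a group and 0.922 to 0.924 between groups, while the typical gene varied by 0.127 (median SD) within a group. Trp53, the mouse gene for p53, lies on chromosome 11 and read 10.05, 10.00 and 10.14 on the empty vector arrays and 9.49, 9.28 and 9.39 on the others. The sources used here do not say whether its probes read the plasmid's transcript, so it does not check the labels. Of 10 markers of oviductal epithelium 9 were above the threshold, and Epcam was below it in both lines. Of 4 leukocyte markers 1 was above it, of 5 fibroblast markers 4, of 3 endothelial markers 3 and of 3 smooth muscle markers 2. Of the endothelial markers 2 were above it in the empty vector line, and Kdr passed only through the p53 R273H line. The summed log2 level of the epithelial markers was 71.5 to 72.1 on the empty vector arrays and 66.1 to 67.2 on the p53 R273H arrays, and that of the fibroblast markers 23.1 to 24.4 and 25.3 to 26.3. The sums were 19.5 to 20.4 and 19.8 to 20.0 for leukocytes, 13.8 to 14.2 and 15.6 to 16.1 for endothelium, and 14.9 to 15.1 and 13.8 to 14.4 for smooth muscle. A few markers made these shifts. Kdr went from a mean of 4.53 to 6.29, while Pecam1 and Cdh5 were not called. Krt8, Krt19, Ovgp1 and Foxj1 fell, and the other epithelial markers were not called. Pdgfra and Col1a1 alone were called among fibroblast markers, and Cnn1 alone among smooth muscle markers. The part of these markers in the chromosome 14 values was not tested.

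The promoters of 6 members are printed first, because they lie in the bands B and C1 that the results turn on and because neighbours in them fell together while 1 of them rose. Mustn1 is a small nuclear protein of developing muscle and skeleton, Prkcd is the kinase protein kinase C delta, and Bap1 is a deubiquitinase and tumour suppressor. Ccnb1ip1 is a ubiquitin ligase of meiotic recombination and of cyclin B turnover, Parp2 is a poly(ADP-ribose) polymerase of DNA repair, and Bmp4 is a secreted growth factor of the TGF-beta family. Bap1 and Parp2 were picked after their values were seen. Each window holds 250 bases before and 50 after the gene's start, from RefSeq on build GRCm38.p6. The windows are chr14:30879007-30879306 on the plus strand for Mustn1, chr14:30626159-30626458 on the minus strand for Prkcd and chr14:31251239-31251538 on the plus strand for Bap1. In C1 they are chr14:50795679-50795978 on the minus strand for Ccnb1ip1, chr14:50807666-50807965 on the plus strand for Parp2 and chr14:46390620-46390919 on the minus strand for Bmp4. Where RefSeq lists several starts the first was taken, which concerned Prkcd among these. Sequences read 5′ to 3′ on the gene's strand, and capitals mark matches to any of 5 patterns, searched on both strands with overlaps allowed. The GC box, bound by factors of the Sp1 family, was searched as GGGCGG. The E-box bound by repressors such as Snai1 was searched as CAGGTG. The other patterns were the CCAAT box, bound by NF-Y, the p53 half-site, and the TATA box, which was searched as TATAAA.
Mustn1: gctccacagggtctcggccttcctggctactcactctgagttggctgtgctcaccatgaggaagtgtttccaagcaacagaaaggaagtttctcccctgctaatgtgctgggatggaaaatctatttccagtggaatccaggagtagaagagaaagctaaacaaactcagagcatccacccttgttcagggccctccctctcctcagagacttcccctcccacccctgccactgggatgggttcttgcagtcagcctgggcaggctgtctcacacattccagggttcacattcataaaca
Prkcd: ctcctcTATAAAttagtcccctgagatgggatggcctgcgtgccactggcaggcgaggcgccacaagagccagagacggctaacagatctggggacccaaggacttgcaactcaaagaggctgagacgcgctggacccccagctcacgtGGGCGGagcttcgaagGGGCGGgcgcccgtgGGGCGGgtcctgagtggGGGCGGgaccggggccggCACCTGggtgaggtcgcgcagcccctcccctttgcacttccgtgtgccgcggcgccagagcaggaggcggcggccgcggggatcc
Bap1: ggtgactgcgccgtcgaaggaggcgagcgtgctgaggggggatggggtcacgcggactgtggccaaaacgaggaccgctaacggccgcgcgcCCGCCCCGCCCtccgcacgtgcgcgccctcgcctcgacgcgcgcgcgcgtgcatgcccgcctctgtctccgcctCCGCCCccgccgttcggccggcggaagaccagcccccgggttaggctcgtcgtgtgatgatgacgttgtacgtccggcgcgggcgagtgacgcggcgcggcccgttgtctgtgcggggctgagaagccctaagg
Ccnb1ip1: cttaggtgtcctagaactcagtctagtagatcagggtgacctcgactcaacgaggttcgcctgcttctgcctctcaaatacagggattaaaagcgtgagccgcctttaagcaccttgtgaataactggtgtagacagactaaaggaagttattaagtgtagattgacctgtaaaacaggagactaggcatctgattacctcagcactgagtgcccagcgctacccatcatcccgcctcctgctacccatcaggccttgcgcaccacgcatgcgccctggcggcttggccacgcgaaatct
Parp2: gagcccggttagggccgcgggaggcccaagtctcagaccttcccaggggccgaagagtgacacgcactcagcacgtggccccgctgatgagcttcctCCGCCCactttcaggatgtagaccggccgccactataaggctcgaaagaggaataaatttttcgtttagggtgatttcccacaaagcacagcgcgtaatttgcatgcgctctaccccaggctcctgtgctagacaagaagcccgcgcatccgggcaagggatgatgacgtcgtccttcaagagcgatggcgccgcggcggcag
Bmp4: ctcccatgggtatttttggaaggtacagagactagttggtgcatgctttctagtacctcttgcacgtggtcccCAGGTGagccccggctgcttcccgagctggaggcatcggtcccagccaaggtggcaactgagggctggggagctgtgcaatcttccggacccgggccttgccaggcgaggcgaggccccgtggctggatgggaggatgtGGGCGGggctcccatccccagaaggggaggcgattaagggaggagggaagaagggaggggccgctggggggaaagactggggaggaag

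The Prkcd window held 4 GC boxes, 1 E-box and 1 TATA box, the Bap1 window 3 GC boxes of which a pair overlap by a base, the Parp2 window 1 GC box, and the Bmp4 window 1 GC box and 1 E-box. Mustn1 and Ccnb1ip1 held no match to any of the 5 patterns, which says only that these letters are not in these windows. Of the 464 members 331 had a RefSeq window. A GC box was in 57.7% of the 331, against 62.1% of 11154 genes above the threshold and 35.9% of 27025 windows of all genes. The E-box was in 16.0% of members, 18.5% of genes above the threshold and 20.0% of all. The CCAAT box was in 38.1%, 38.8% and 37.9%, and the TATA box in 6.95%, 7.74% and 14.2%. The p53 half-site was in 6.95%, 6.92% and 8.37%. By these letters the chromosome 14 promoters were close to those of other genes that passed the threshold. The median share of G and C was 60.3% in members and 60.7% in genes above the threshold. Among members it was 62.0% for the 151 called lower, 59.7% for the 19 called higher and 58.0% for the 161 not called.

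Chromosome 14 as a whole was lower in the p53 R273H line. For each array and gene the mean of the empty vector arrays was subtracted, and the median over the 464 members gives the level of the chromosome on that array. This level was 0.0068, -0.0045 and 0.0063 on the empty vector arrays and -0.29, -0.26 and -0.27 on the p53 R273H arrays. The 2 lines did not overlap, and the arrays of a line lay within a few hundredths of each other. The median difference over members was -0.28 on the log2 scale, with the middle 50% of genes between -0.58 and 0.057. It depended on the filter, at -0.068 over all 818 genes of the chromosome and -0.41 over those above the 75th percentile of signal. The median of all genes above the threshold was 0.0014, and that of genes on other chromosomes 0.0087. Of the members 331 (71.3%) were lower and 133 higher, against 49.8% lower over all genes above the threshold. Called lower were 186 members (40.1%), called higher 30 (6.47%), and 248 were not called. The groups did not overlap for 235 members in the lower direction and for 49 in the higher.

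**Figure D1:**
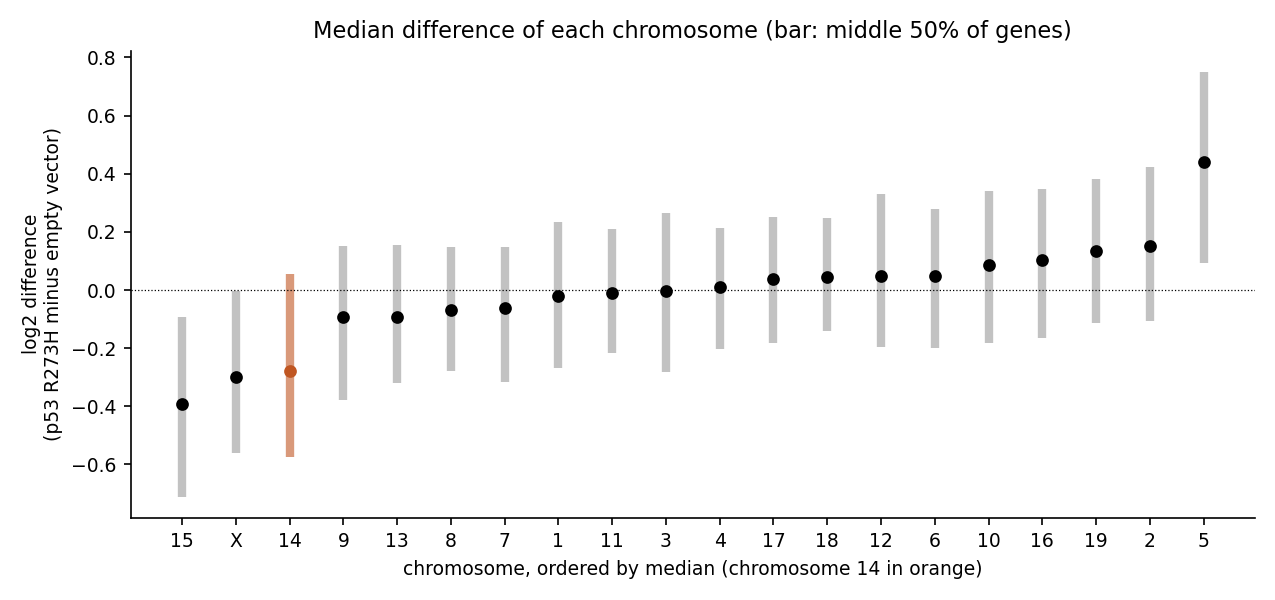
Median log2 difference (p53 R273H minus empty vector) of the genes above the threshold on each chromosome, with bars for the middle 50% of genes. The Y chromosome, with 6 genes, is not drawn. Chromosome 14, in orange, sits at -0.28, next to chromosome X at -0.30 and chromosome 15 at -0.39, and chromosome 5 stands at 0.44 at the other end.

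Of 21 chromosomes only chromosome 15 (median -0.39, 549 genes) and chromosome X (-0.30, 419 genes) had a lower median than chromosome 14 in the plot of chromosome medians. The next was chromosome 9 at -0.094, while chromosome 5 had the highest at 0.44 (834 genes).

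The low level was uneven along the chromosome. It was lowest in the run of bands from A2 to C2, closer to 0 in C3 and D1, low again in D2 and E5, and near 0 in E2.3 and E4. Described bands hold at least 5 members, which gave 14 bands with 399 members. The counts of calls given below for each band stand beside 18.3% called lower and 18.2% higher over all genes above the threshold. By letter the medians were -0.34 in A (55 members), -0.39 in B (75), -0.24 in C (129), -0.15 in D (101) and -0.10 in E (39). On other chromosomes 285 bands had at least 10 members, with a median of -0.014 and 80% of them between -0.21 and 0.28. Of these 22 lay below -0.3, and of the 12 chromosome 14 bands of that size 6 did. Chromosomes 15, X and 5 had the medians furthest from 0 in this comparison. Leaving them out there were 240 such bands, of which 4 lay below -0.3. Most of the 22 low bands were thus on chromosomes 15 and X, and low bands were not particular to chromosome 14.

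**Figure D2:**
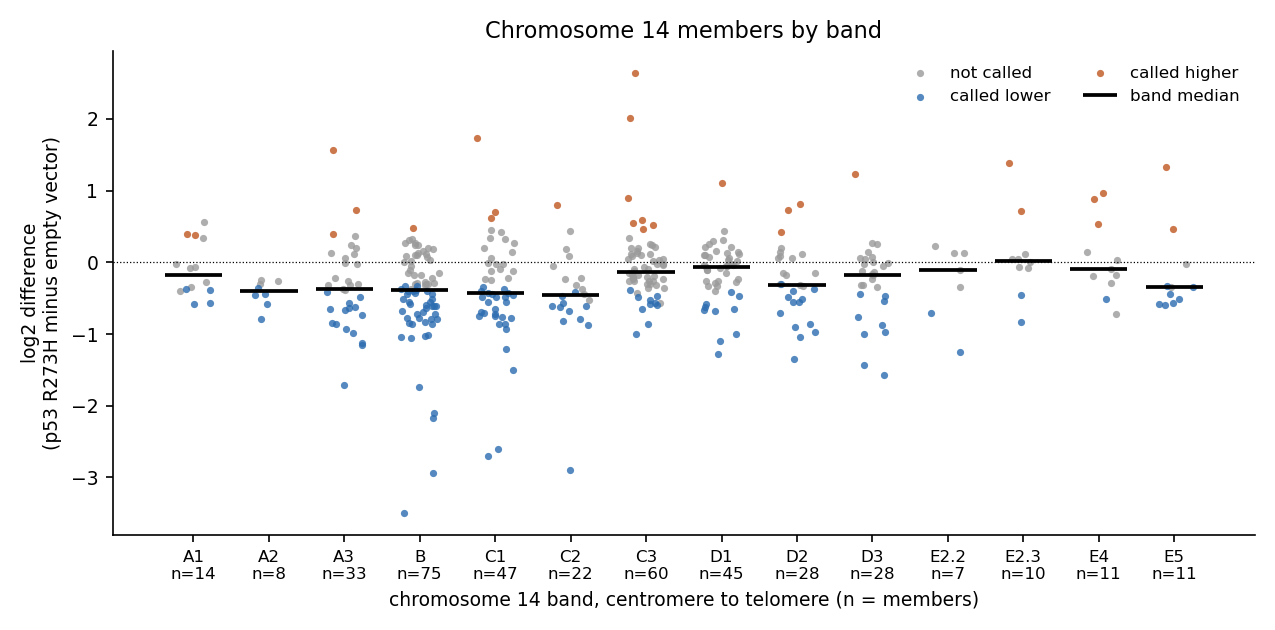
Log2 difference of each member (p53 R273H minus empty vector) by band, from A1 at the centromere to E5, with the band median as a black line and members called lower in blue, higher in orange and not called in grey. Medians from A2 to C2 lie between -0.46 and -0.37, and that of E2.3 lies at 0.020.

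Band A1 held 14 members and had levels of -0.0070, -0.00014 and 0.0052 with empty vector and -0.23, -0.10 and -0.19 with p53 R273H. Its median difference was -0.18, with 4 called lower and 2 higher. Abhd6, a lipase that breaks down monoacylglycerols, fell by 0.59 ± 0.12 (SE), and Pxk, a phox-homology domain protein of membrane trafficking, rose by 0.38 ± 0.08 (SE). Under the alternatives tried its median lay between -0.37 and -0.0040.

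In A2 all 8 members were lower and 5 were called, with none called higher. Its levels were 0.058, -0.066 and -0.031 with empty vector and -0.49, -0.38 and -0.32 with p53 R273H, and its median difference was -0.40. The lines did not overlap.

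Band A3 held 33 members with levels of -0.020, 0.0070 and 0.016 against -0.44, -0.36 and -0.37. Its median difference was -0.37, with 15 called lower and 3 higher. Zfp503, a zinc finger repressor of transcription, read 6.66, 6.51 and 6.61 with empty vector and 4.89, 4.96 and 4.80 with p53 R273H, a fall of 1.71 ± 0.10 (SE). Zmiz1, a coactivator of nuclear receptors, fell by 0.86 ± 0.11 (SE). Anxa11, an annexin that binds membranes when calcium rises, went the other way. It read 9.77, 9.85 and 9.84 with empty vector and 11.50, 11.38 and 11.29 with p53 R273H, a rise of 1.57 ± 0.10 (SE). Plau, the urokinase protease that activates plasminogen, rose by 0.39 ± 0.08 (SE). The largest changes in A3 thus ran in both directions around a band that was mostly lower. Wnt5a, a secreted WNT ligand of A3, was not a member, since its means of 4.49 and 4.43 were below the threshold.

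Band B was the largest, with 75 members, 41 called lower and 1 called higher. Its levels were -0.00092, -0.016 and 0.0086 with empty vector and -0.39, -0.44 and -0.39 with p53 R273H, and its median difference was -0.39. Mustn1 had the largest fall among the genes with ordinary names. It read 9.09, 8.95 and 8.48 with empty vector and 5.98, 5.87 and 5.85 with p53 R273H, a fall of 2.94 ± 0.16 (SE). Prkcd read 9.09, 9.03 and 9.07 against 7.93, 7.93 and 8.16, a fall of 1.05 ± 0.10 (SE). Bap1 read 9.25, 9.38 and 9.31 against 8.90, 8.75 and 8.64, and fell by 0.55 ± 0.10 (SE). For each of these 3 genes, whose promoters are printed above, every p53 R273H array was below every empty vector array. The 1 gene of B called higher was Nt5dc2, a nucleotidase-like protein, which rose by 0.48 ± 0.10 (SE).

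**Figure D3:**
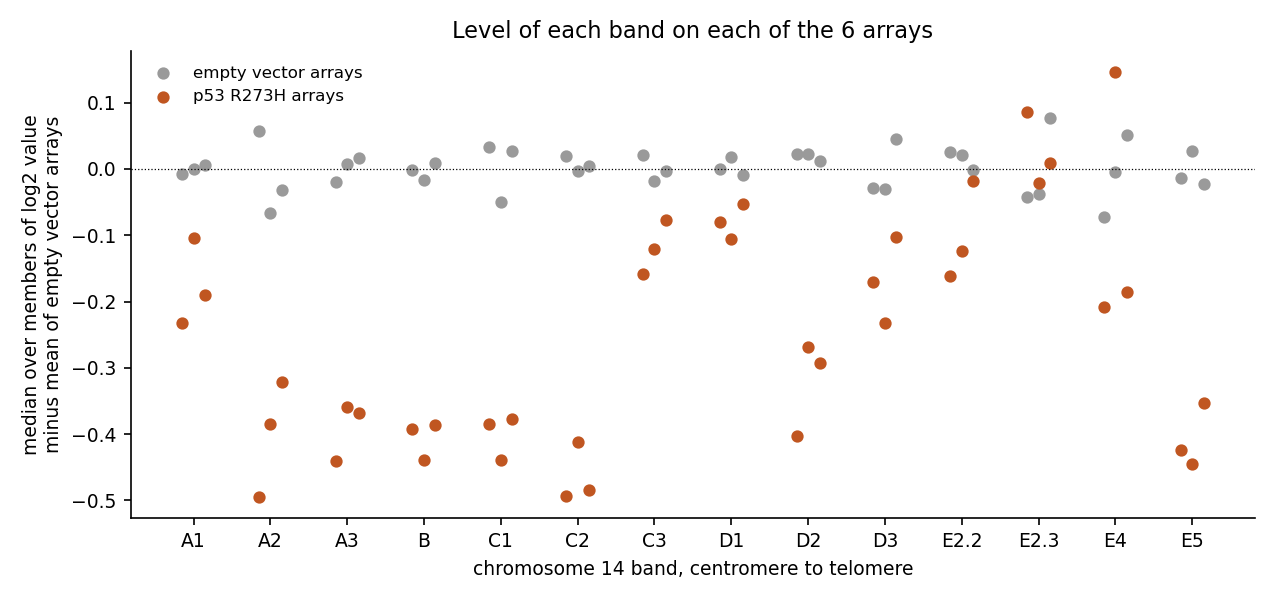
Level of each band on each of the 6 arrays, as the median over its members of the log2 value minus the mean of the empty vector arrays, for empty vector (grey) and p53 R273H (orange). The lines overlap in E2.3 and E4, and in the other 12 bands all p53 R273H arrays lie below all empty vector arrays.

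Band C1 held 47 members, of which 27 were called lower and 3 higher. Its levels were 0.033, -0.050 and 0.027 with empty vector and -0.39, -0.44 and -0.38 with p53 R273H, with a median difference of -0.43. Ccnb1ip1 read 6.51, 6.53 and 6.48 against 3.51, 4.13 and 3.76, a fall of 2.71 ± 0.15 (SE). Parp2, its close neighbour, read 8.04, 7.92 and 8.05 against 7.16, 7.30 and 7.28, and fell by 0.75 ± 0.09 (SE). Their values fell side by side, while Bmp4 of the same band rose. Bmp4 read 7.88, 7.82 and 7.84 with empty vector and 8.47, 8.60 and 8.56 with p53 R273H, a rise of 0.70 ± 0.09 (SE). Txndc16, a thioredoxin domain protein of the endoplasmic reticulum, rose by 1.74 ± 0.13 (SE). The p53 R273H mean of Ccnb1ip1, 3.80, lies below the brightness threshold, and the files do not say whether such a signal exceeds background, so the size of its fall is not exact. The same holds for every gene with a group mean below the threshold, and among the genes named with a change these are Efha1, Scara5, Ccdc122 and Loxl2 (p53 R273H line) and Gzme and Dgkh (empty vector line).

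Band C2 had the lowest median of all, -0.46 over 22 members, with 11 called lower and 1 higher. Its levels were 0.020, -0.0037 and 0.0038 with empty vector and -0.49, -0.41 and -0.48 with p53 R273H. Efha1, an older symbol of Micu2, which gates calcium entry into mitochondria, read 6.41, 5.97 and 6.58 against 3.32, 3.44 and 3.50. It fell by 2.90 ± 0.16 (SE) and had the largest fall of the band. In RefSeq order it stands at position 282, among genes of C3 and D1. Chd8, a chromatin remodeller that binds beta-catenin, fell by 0.81 ± 0.11 (SE). Mmp14, a membrane-bound protease that cuts collagen and activates another matrix protease, rose from 9.12, 8.99 and 9.08 to 9.83, 9.81 and 9.95. Its rise of 0.80 ± 0.09 (SE) was the only one called in C2.

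In C3 the low level was weaker. It held 60 members with levels of 0.022, -0.018 and -0.0028 against -0.16, -0.12 and -0.077, and its median difference was -0.14. Called lower were 10 members (16.7%) and called higher 7 (11.7%), both below the shares of 18.3% and 18.2% over all genes above the threshold. Dhrs1, a dehydrogenase of the short-chain family, fell by 1.00 ± 0.10 (SE). Gzme, a granzyme protease of cytotoxic lymphocytes, was the largest rise of the chromosome. It read 3.42, 2.85 and 3.97 with empty vector and 6.22, 5.75 and 6.19 with p53 R273H, a rise of 2.64 ± 0.27 (SE). Haus4, a subunit of the augmin complex of the mitotic spindle, rose by 0.55 ± 0.10 (SE), and Parp4, the vault poly(ADP-ribose) polymerase, by 0.47 ± 0.10 (SE).

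Band D1 was nearer to 0 still, at -0.068 over 45 members, with 10 called lower (22.2%) and 1 higher (2.22%). Its levels were 0.00041, 0.018 and -0.0084 against -0.080, -0.11 and -0.053. Scara5, a scavenger receptor that takes up ferritin, fell by 1.27 ± 0.11 (SE), to a mean of 3.85 below the threshold. Clu, a secreted chaperone of the oviduct and many other epithelia, read 7.73, 8.09 and 8.09 against 6.88, 6.95 and 6.77, a fall of 1.10 ± 0.13 (SE). Kpna3, an importin that carries proteins into the nucleus, fell by 1.00 ± 0.10 (SE). Dock5, an activator of the GTPase Rac, rose by 1.10 ± 0.09 (SE) and was the band's one called rise. Gata4, a transcription factor of the heart and gonads, had a difference of 0.29 ± 0.10 (SE) and was not called.

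The level dropped again in D2, to a median of -0.31 over 28 members, with 13 called lower and 3 higher. Its levels were 0.023, 0.023 and 0.012 against -0.40, -0.27 and -0.29. The step from D1 to D2 was small among members above the 75th percentile of signal, with medians of -0.26 and -0.32. Among the dimmer members the medians were 0.022 in D1 and -0.31 in D2. Loxl2, an enzyme that cross-links collagen and elastin, read 5.77, 5.90 and 5.80 with empty vector and 4.50, 4.34 and 4.59 with p53 R273H, a fall of 1.35 ± 0.10 (SE) to a mean below the threshold. Sorbs3, the adaptor vinexin of cell contacts, rose by 0.82 ± 0.14 (SE). Polr3d, a subunit of RNA polymerase III, rose by 0.43 ± 0.10 (SE), and this call was lost without empty vector array 1.

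Band D3 held 28 members with levels of -0.028, -0.030 and 0.046 against -0.17, -0.23 and -0.10. The median difference was -0.17, with 9 called lower and 1 higher. Rb1, the retinoblastoma protein that restrains entry into S phase, read 8.62, 8.75 and 8.75 with empty vector and 7.80, 7.70 and 7.61 with p53 R273H. It fell by 1.01 ± 0.10 (SE), and the lines did not overlap. Tsc22d1, a leucine zipper protein induced by TGF-beta, fell by 0.97 ± 0.09 (SE), and Ccdc122, a coiled-coil protein, by 1.44 ± 0.13 (SE), to a mean of 4.06 below the threshold. The symbol 9030625A04Rik, matched to Lacc1 of macrophage metabolism, fell by 1.56 ± 0.09 (SE). Dgkh, a diacylglycerol kinase, rose by 1.23 ± 0.19 (SE) from a mean of 3.94 below the threshold.

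The bands of E differed among themselves. In E2.2, with 7 members, the levels were 0.026, 0.021 and -0.0013 against -0.16, -0.12 and -0.018, the median difference was -0.10 and 2 were called lower. Dis3, the catalytic subunit of the RNA exosome, read 10.00, 10.04 and 10.02 against 8.75, 8.80 and 8.75, a fall of 1.26 ± 0.08 (SE). Klf5, a transcription factor of epithelial growth, had a difference of 0.13 ± 0.09 (SE) and was not called.

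In E2.3, with 10 members, the lines overlapped at -0.043, -0.038 and 0.076 against 0.085, -0.021 and 0.0087, and the median difference was 0.020. It had 2 calls in each direction, or 20% of its members each way. Mycbp2, a large ubiquitin ligase, fell by 0.83 ± 0.10 (SE). Lmo7, an actin-linked protein of cell junctions, rose by 1.39 ± 0.17 (SE), and Spry2, an inhibitor of receptor tyrosine kinase signalling, by 0.72 ± 0.12 (SE). The sign of this band's median changed between alternatives.

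Band E4 overlapped as well, with -0.073, -0.0042 and 0.051 against -0.21, 0.15 and -0.18 over 11 members and a median of -0.10. It had 1 called lower and 3 higher. Rap2a, a small GTPase, fell by 0.51 ± 0.09 (SE). Gpc6, a glypican of the cell surface, rose by 0.97 ± 0.11 (SE), and Dnajc3, a chaperone of the endoplasmic reticulum, by 0.54 ± 0.10 (SE). Its p53 R273H array 2 was high, above all the empty vector arrays, and the median of E4 was above 0 without the filter on dim genes and as a mean over members.

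At the far end E5 was low, with levels of -0.013, 0.027 and -0.023 against -0.42, -0.45 and -0.35 and a median of -0.35. Of its 11 members 7 were called lower and 2 higher. Tmtc4, a mannosyltransferase of the endoplasmic reticulum, fell by 0.60 ± 0.08 (SE), and Clybl, a mitochondrial lyase of vitamin B12 metabolism, rose by 1.33 ± 0.14 (SE).

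The remaining 65 members had no described band, and their median was -0.38, with 29 called lower and 1 higher. Of these 35 gave only the chromosome or a genetic map position (median -0.44), 13 had a band that was cut off in the text (-0.36), 13 gave a range of bands (0.096) and 4 lay in bands with fewer than 5 members (-0.56). Kctd12, an auxiliary subunit of the GABA-B receptor whose band was cut off, read 7.96, 8.06 and 8.15 against 5.62, 5.63 and 5.45, a fall of 2.49 ± 0.10 (SE). Abcc4, an exporter of drugs and cyclic nucleotides with no band given, fell by 1.64 ± 0.10 (SE). Gch1, which starts the synthesis of tetrahydrobiopterin and whose text gave a range of bands, rose by 1.48 ± 0.10 (SE). Kctd9, also with its band cut off, had a difference of 0.40 ± 0.13 (SE) and was not called.

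Just inside the threshold stood Pcdh8 and Trim13, whose higher means were both 4.54, with differences of 0.25 and 0.13. Just outside stood Fgf9 at 4.53 and Synpr at 4.51, with differences of 0.24 and -0.15.

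Order along the chromosome gives a finer view than the bands. RefSeq placed 453 of the 464 members in order, and 393 of these had a described band. Bands overlapped in this order, so a band as written in the text is not always an unbroken stretch. Efha1 of C2 is 1 case. Of the 46 members of C1 with an order, 10 stood at ranks 214 to 260, among genes of C3. The medians of C1 and C3 thus compare bands as written, not separate stretches. Medians over 15 neighbouring members gave 439 windows, of which 386 were below 0 and 203 below -0.3. The lowest window, -0.75, ran from Ktn1 to Tmem55b in C1 and C2. There 15 of 15 members were lower and 12 were called lower, against 49.8% and 18.3% of all genes above the threshold. The highest value, 0.19, was shared by 5 windows centred between ranks 146 and 154. The first of these ran from Tspan14 to Txndc16 in B and C1, with 6 of 15 members lower, and its genes were dim, with a median level of 4.90 against 7.13 in the lowest window. Genes given only as the ends or parts of a stretch were named after their values were seen.

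**Figure D4:**
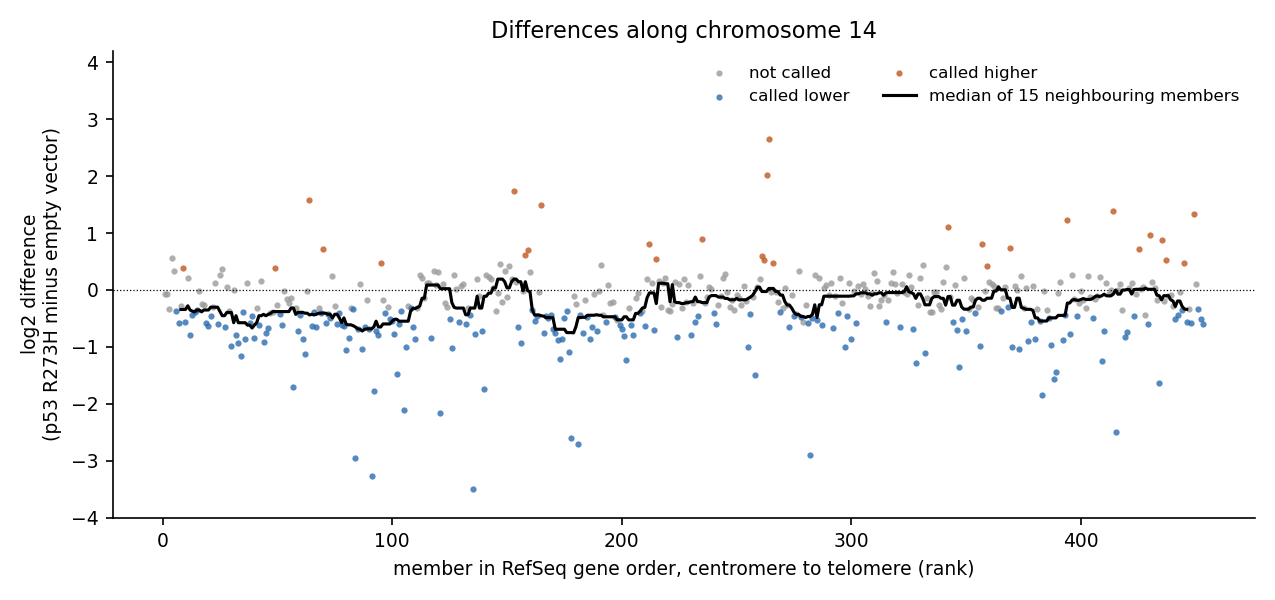
Log2 difference of each member (p53 R273H minus empty vector) in RefSeq gene order, with members called lower in blue, higher in orange and not called in grey, and the median of 15 neighbouring members as a black line. The line is below 0 in 386 of 439 windows, is lowest at -0.75 around rank 179 and rises to 0.19 in one stretch before it.

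Stretches of neighbours were picked by their length in these same values, and stretches on other chromosomes were not measured. Over all genes above the threshold 18.3% were called lower and 18.2% higher. Groups did not overlap for 26.8% in the lower direction and 27.8% in the higher. The longest stretch of neighbours that were all lower held 25 members from Wdhd1 to Ear5, with a median of -0.65 and 20 called lower. It includes Ccnb1ip1 and Parp2. Its levels were 0.0061, -0.056 and 0.040 with empty vector and -0.63, -0.61 and -0.50 with p53 R273H. A second stretch of 16 ran from Arhgef40 to Oxa1l (median -0.50), and another of 16 from Stab1 to Ogdhl in B (-0.53). Within the latter, 14 members in a row from Nisch to Parg had no overlap between the lines, with levels of -0.0042, 0.0054 and 0.0090 against -0.58, -0.59 and -0.58. The members of that stretch, Bap1 among them, differed from -0.28 to -2.11. The longest stretch of members that were all higher held 6, from Cbln3 to Gzme around a cluster of mast cell protease and granzyme genes. It had 4 called and a median of 0.56. Of its called genes, Gzme, Mcpt8 and Mcpt-ps1 were below the threshold in the empty vector line. They had to be higher to be kept, so the filter helped to make this stretch. Around Bmp4, 3 neighbours in a row (Ddhd1, Bmp4 and Cdkn3, a phosphatase of cyclin-dependent kinases) had all p53 R273H arrays above all empty vector arrays, with a median of 0.61 and 2 of them called.

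**Figure D5:**
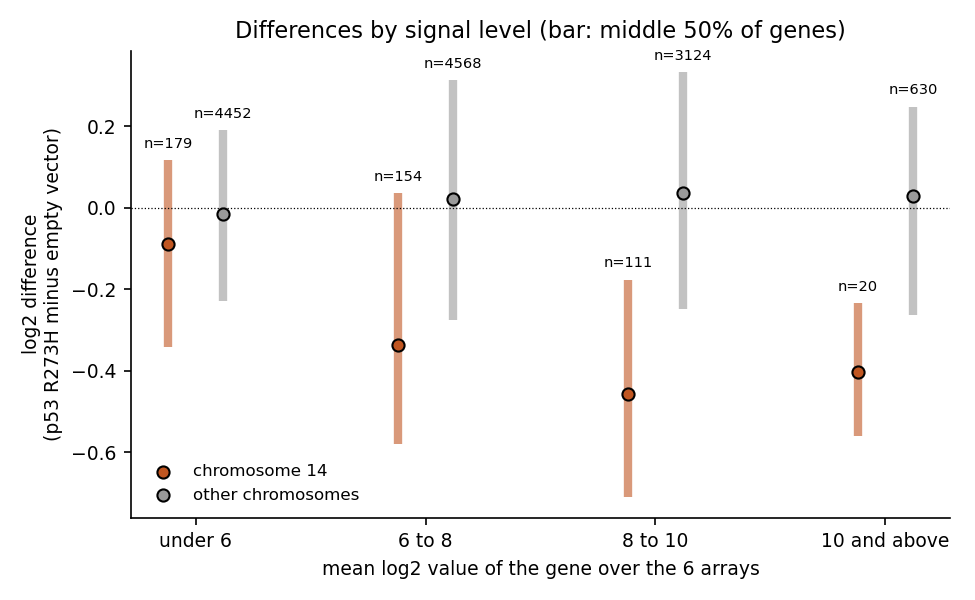
Median log2 difference (p53 R273H minus empty vector) by the gene's mean log2 value over the 6 arrays, for chromosome 14 (orange) and other chromosomes (grey), with bars for the middle 50% of genes. Chromosome 14 lies at -0.090 in the dimmest class and between -0.34 and -0.46 in the others, while other chromosomes stay between -0.015 and 0.036.

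Signal level went with the size of the difference. Members with a mean level under 6 had a median of -0.090 (179 genes), those from 6 to 8 had -0.34 (154), those from 8 to 10 had -0.46 (111) and those of 10 and above had -0.40 (20). On other chromosomes the same classes had -0.015, 0.022, 0.036 and 0.030. Called lower were 19.0%, 45.5%, 64.0% and 55.0% of the members in these classes, against 13.9%, 19.5%, 20.0% and 21.6% on other chromosomes. Among members above 6.68, the 75th percentile of all rows, the band medians were -0.57 in A3, -0.60 in B, -0.49 in C1, -0.57 in C2, -0.24 in C3, -0.26 in D1, -0.32 in D2 and -0.44 in E5. Among these bright members the medians of B and C2 were below those of C3 and D1, while that of D1 was close to that of D2. The part of signal level in the differences between bands was not tested. Protein-coding members with ordinary names (376) had a median of -0.30, and the other 88 had -0.23.

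The members were also read by what their products do, in 11 lists. Because the lists were drawn up with results of these data known and lie on a chromosome chosen for its values, their counts describe and test nothing. Of 22 members in cell division and the RB1 pathway, 8 fell and 1 rose (median -0.11), with Ccnb1ip1 and Haus4 as the extremes and Rb1 among those that fell. Of 18 in chromatin and DNA repair 10 fell, Chd8 and Parp2 among them, and Parp4 rose (-0.44). Of 15 members on the list of transcription factors 2 fell, Zmiz1 by the most, and 0 rose (-0.17). That list is not complete. Zfp503, described above as a repressor of transcription, was not on it and fell by 1.71.

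The lists of signalling, matrix and innate immunity differed among themselves. Of 9 members in growth factor, hormone and WNT signalling 3 fell and 2 rose, the latter Bmp4 and Spry2 (median 0.070). Of 16 in kinases, phosphatases and calcium signalling 8 fell, led by Efha1 and with Prkcd among them, and 3 rose, led by Dgkh (-0.36). The matrix, adhesion and cytoskeleton list had nearly as many rises as falls. Of its 25 members 8 fell, Loxl2 and Clu among them, and 7 rose, including Anxa11, Lmo7, Gpc6, Sorbs3, Mmp14 and Plau, and its median was -0.034. Of 11 in innate immunity and interferon 4 fell and 0 rose (-0.31). Gzme and Mcpt8 of C3, both called higher, were not on that list.

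The lists of general cell upkeep held mostly falls among their calls, as did the chromosome as a whole. Of 24 members in mitochondria and metabolism 14 fell and 2, Gch1 and Clybl, rose (median -0.40). Of 20 in the endoplasmic reticulum, Golgi and trafficking 11 fell and 1 rose (-0.38), and of 12 in translation and RNA processing 8 fell and 1 rose (-0.45). Of 17 in proteasome and ubiquitin 6 fell and 0 rose (-0.32). Kctd12 fell by the most on that list, but it is described above as a GABA-B receptor subunit, so its fall says little about that function. Beside these medians stand that of the whole chromosome, -0.28, and that of all genes above the threshold, 0.0014. Beside the counts of all lists stand the shares of the chromosome, 40.1% called lower and 6.47% higher. Those of all genes above the threshold were 18.3% and 18.2%.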

How the data were processed

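The authors deposited log2 expression values for 41345 probe rows on 6 Affymetrix arrays labelled with a WT PLUS kit, per the labels. The sources used here give neither the array model nor how the values were normalized. A second deposited table gave the authors' ratio, a signed fold score, p-value and step-up p-value per row, per the file headers. Log2 of that ratio differed from the difference between the means of the 2 groups by at most 6.64e-05. Gene locations in that table are cut after 87 characters, so 2743 genes with a symbol have no location, and 145 rows naming several genes were left out.

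The chromosome, its members, the gene lists and the rule for named genes were chosen with earlier results of these data known. The rule takes Rb1, Bmp4, Wnt5a, Klf5, Mmp14, Loxl2, Plau, Prkcd, Clu and Spry2, the largest non-overlapping fall and rise of each band with at least 10 members and of each list, and the 2 genes on either side of the threshold. Genes with predicted or clone names and small RNA genes were left out of the choice by band.

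The lines were set against each other by a two-sided eBayes fit of limma 3.58.1 (R 4.3.3) over 24574 genes, with Benjamini-Hochberg adjustment at 0.05. The fit was tested on simulated data. The number of arrays, 3 in each group, limits the precision. RefSeq (GRCm38.p6) gave names, gene order and promoter sequences. The deposited files name no build. Alternatives changed the normalization, the filter, the choice of row, the variance and the arrays used.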

Additional observations from a re-analysis of the deposited data

How the results depend on the processing

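The median of the chromosome and the medians of 12 of the 14 bands stayed below 0 under every alternative tried, and those of E2.3 and E4 did not. With quantile normalization the chromosome was at -0.24, A1 at -0.039, A3 at -0.34, C3 at -0.084 and D2 at -0.27. With array medians subtracted the chromosome was at -0.24, A1 at -0.036, A3 at -0.34, B at -0.35, C1 at -0.39, C2 at -0.42, C3 at -0.098, D1 at -0.030 and D2 at -0.27. Without a filter on dim genes the values were -0.068 for the chromosome, -0.0040 in A1, -0.26 in A2, -0.18 in A3, -0.27 in B, -0.12 in C1, -0.22 in C2, -0.064 in C3, -0.037 in D1, -0.14 in D2, -0.070 in D3, 0.14 in E4 and -0.092 in E5. With the filter at the 75th percentile they were -0.41 for the chromosome, -0.37 in A1, -0.57 in A3, -0.60 in B, -0.49 in C1, -0.57 in C2, -0.24 in C3, -0.26 in D1, -0.22 in E2.2, -0.037 in E2.3 and -0.44 in E5, and 19 members were called higher. A filter on the mean of all arrays gave -0.070 in A1. The mean over the rows of a symbol gave -0.31 in A1, -0.38 in C1 and -0.031 in E2.3. A mean over members gave -0.10 in A1, -0.33 in A3, -0.48 in B, -0.38 in C1, -0.034 in C3, -0.15 in D1, -0.28 in D2 and D3, -0.27 in E2.2, 0.088 in E2.3, 0.052 in E4 and -0.18 in E5. Bands merged to a letter take the letter's median, which was -0.34 for A1 and A3, -0.24 for C1, C2 and C3, -0.15 for D1 and D2, and -0.10 for E2.3 and E5. Protein-coding members with ordinary names, an alternative chosen after seeing the data, gave -0.30 for the chromosome, -0.32 in A1 and A3, -0.52 in C2, -0.16 in C3, -0.049 in D1 and -0.22 in E2.2. The cause of these shifts was not tested.

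Members called lower numbered 112 if a change of at least 1.5-fold was also asked. The deposited step-up p-values gave 154 lower and 26 higher, and a trended and robust variance 212 and 36. Leaving out each array in turn gave -0.30 to -0.26 for the chromosome, 154 to 169 members called lower and 27 to 33 higher. Over these fits the medians ran from -0.27 to -0.062 in A1, -0.45 to -0.34 in A2, -0.39 to -0.33 in A3, -0.43 to -0.36 in B, -0.43 to -0.39 in C1, -0.53 to -0.40 in C2, -0.16 to -0.11 in C3, -0.10 to -0.068 in D1, -0.34 to -0.24 in D2, -0.25 to -0.13 in D3, -0.19 to -0.024 in E2.2, -0.044 to 0.081 in E2.3, -0.22 to -0.019 in E4 and -0.42 to -0.33 in E5. Wnt5a, not a member, changed sign to 0.012 without p53 R273H array 1. Of the other values of named genes under alternatives 462 kept direction and call, 6 gained a call (Gata4 and Kctd9) and 1 lost it (Polr3d, 0.37 without empty vector array 1). The labels do not say that arrays of the 2 lines with the same number are pairs, so they were not treated as such. Deviations of arrays with the same number had r = -0.11, 0.033 and -0.015. Those of arrays with different numbers ran from -0.084 to 0.094. A fit with the replicate number as a block called 161 members lower and 30 higher. Genes placed on chromosome 14 by RefSeq alone, also added after seeing the data, raised the calls to 199 lower and 31 higher, with a median of -0.28. The 3 arrays per line limit precision, and dim genes may lie at background.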

Other observations

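Members outside the naming rule included several with large falls, which are named here after their values were seen. The gene 2610528A11Rik of band B, listed under a clone name, fell from a mean log2 value of 8.78 to 5.29, the largest fall among the members. The small nucleolar RNA genes, whose products guide the modification of other RNAs, included Snord69 (means 10.13 and 6.86), Snora31 (7.26 and 5.42), Snord19 (6.91 and 5.14) and Snord8 (8.80 and 7.57), which all fell. Hacl1, a peroxisomal lyase of fatty acid oxidation, fell by 2.11 ± 0.10 (SE), and Anxa8, another annexin, fell from 7.75 to 5.59, both in band B. Mcpt8, a mast cell protease next to Gzme in C3, rose by 2.02 ± 0.14 (SE) from a mean of 3.85, below the threshold, so the size of this rise is not exact.

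A further 39 genes above the threshold had a location cut off in the deposited text and are placed on chromosome 14 by RefSeq. Their median difference was -0.16, with 29 lower, 13 called lower and 1 called higher.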
